A study of Mus musculus with 6 samples.

Results

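Epiblast stem cells (EpiSCs) of mouse strain 129/Sv were cultured in a condition that turns them into neural plate cells, and the second day of that conversion is described here: cells after 2 days (NPC2) against cells after 1 day (NPC1). The labels name no genetic change or added agent for any group, and the groups differ in the days under the neural plate condition. Each group held 2 cultures, A and B, so that 4 of the 6 arrays of the series enter the contrast, and the arrays were chosen by their labels alone. The other 2 arrays are EpiSCs kept under the maintenance condition, and they enter the fit through the shared estimate of the spread. They also count in choosing which genes are tested and which probe stands for each gene. A filter on the NPC1 and NPC2 arrays alone left 14580 genes to test against 14772. All duplicate cultures came from the same seed culture, and all arrays lay on 1 slide, so p-values measure the spread between these cultures only, which may be technical.

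EpiSCs stand for the late epiblast, the layer of the embryo from which all 3 germ layers form, and they are maintained by FGF and Activin or Nodal signals. When those signals fall away, epiblast cells by default take on neural identity: they switch on SoxB1 factors and Notch-dependent Hes repressors, exchange E-cadherin for N-cadherin, and are then patterned along the body axis by Wnt, FGF, BMP, Hedgehog and retinoid signals. A neural plate cell is a proliferating progenitor of the nervous system, and neurons arise from it only later, when proneural factors overcome the Hes repressors.

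RNA was hybridised to 1-colour mouse expression arrays, and each value below is the scaled intensity of a gene's probe, on a linear scale on which the 75th percentile of its array equals 100. Each array held 59305 spots other than controls, of which 58.2 to 61.1% lay well above background and 0 were saturated; the number of arrays limits the precision. The log2 levels of the A and B cultures correlated across probes at 0.997 in NPC1 and 0.997 in NPC2, and those of NPC1 with NPC2 arrays at 0.971 to 0.972. The median standard error of a log2 change was 0.07. The labelled cell types were checked against fixed markers. On the NPC2 arrays the epiblast genes Pou5f1, Utf1, Fgf5 and Tdgf1 lay below their NPC1 values, Nanog lay above, and the neural plate genes Sox1, Sox2, Sox3, Hes5 and Cdh2 lay above, with Zic1 below on the probe that stands for it.

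The second day moved close to every other gene that could be measured. Of 14772 genes tested, 6996 (47.4%) were called at a Benjamini-Hochberg adjusted p under 0.05 by limma, 3045 of them higher in NPC2 (20.6% of genes tested) and 3951 lower (26.7%). Most of these changes were small: 694 genes (4.7%) were called and at least 2-fold higher, and 914 (6.19%) were called and at least 2-fold lower. The 4 arrays of 11186 genes (75.7%) did not overlap between the groups, so a gap between groups was common. A gap given for a gene below is to be read against that share. With the authors' value table in place of the scaled scanner values, 41.03% of the calls were lower against 56.5% here. The median log2 change of all genes tested was −0.05. In RNA from whole cultures, fewer cells of a type and less RNA per cell cannot be told apart. Folds of dim genes were smaller after another background correction (normexp), by over 1.5 times on the log2 scale for 113 of the 276 genes named below that were called, all in the same direction.

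**Figure D1:**
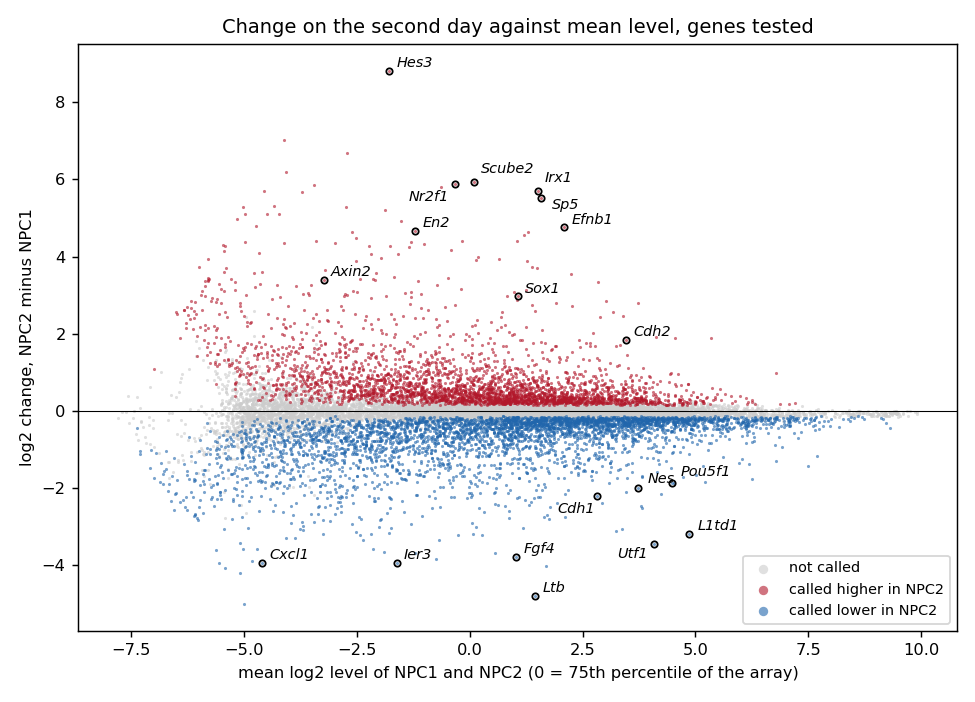
Log2 change from NPC1 to NPC2 (vertical) against the mean log2 level of both groups (horizontal, 0 is the 75th percentile of the array) for the 14772 genes tested. The 3045 genes called higher are red and the 3951 called lower are blue; Hes3, Scube2, Nr2f1, Irx1 and Sp5 stand highest among the labelled genes, and Ltb stands lowest.

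The 42 gene lists held 998 genes, of which 996 were on the array and 880 passed the filter for testing, which asked that both arrays of some group lie well above background. Some lists were mostly higher on the second day, some mostly lower, and others mixed. Regional neural genes, progenitor genes, Hes and Id genes, Wnt ligands and antagonists, and BMP genes had positive medians. Keratins and claudins, NF-kB genes, epiblast and naive pluripotency genes, FGF feedback genes, actin genes and amino acid stress genes had negative medians. The lists were chosen with earlier results of these data known, and their counts and medians are a description, to be read against the 47.4% of all genes called and the median of −0.05.

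**Figure D2:**
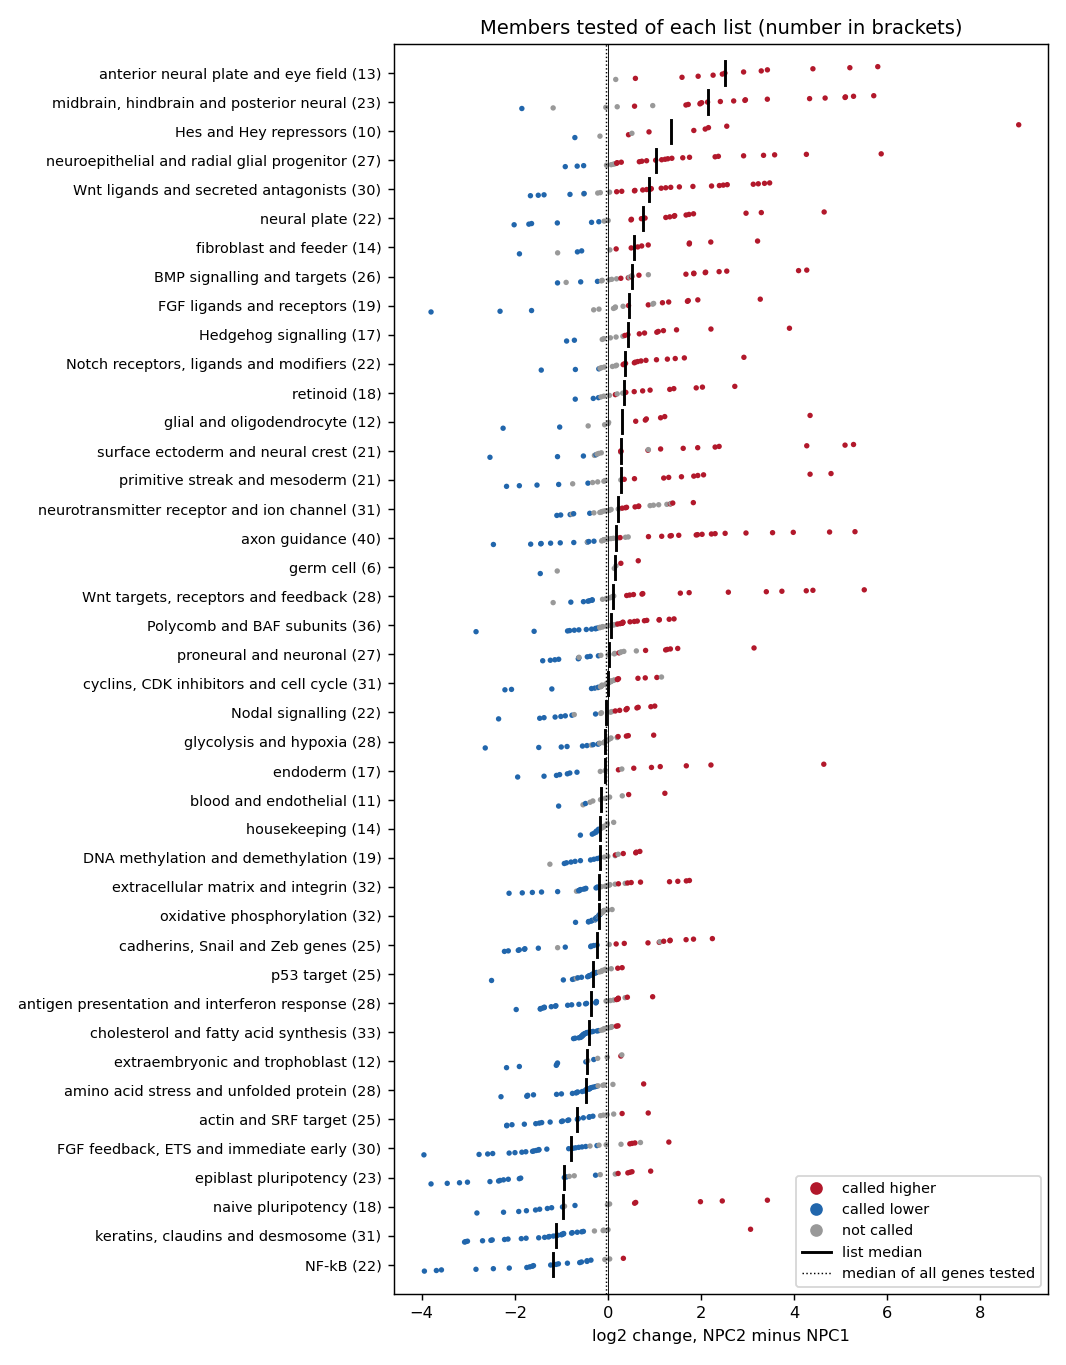
Log2 change from NPC1 to NPC2 of every tested member (points) of 42 gene lists (rows, number tested in brackets), with the list median as a bar and the median of all genes as a dotted line. The anterior and the midbrain, hindbrain and posterior lists stand at the top with medians of 2.51 and 2.14, and the NF-kB and the keratin, claudin and desmosome lists at the bottom with −1.17 and −1.11.

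Genes of the neural plate itself rose in most cases, and Pou3f3 and Olig3 were not well above background in any group. Of 24 listed genes on the array, 22 passed the filter on dim probes, 14 rose, 6 fell and 2 were not called, with a median log2 change of 0.76. Sox1, a SoxB1 factor that marks committed neural plate, read 76.04 and 74.4 in NPC1 and 596 and 579 in NPC2. Its NPC2 arrays lay far above its NPC1 arrays (log2 change 2.97 ± 0.057, adjusted p = 3.59e-05), and a second probe gave 1.57. Foxb1, a forkhead factor of the early neural tube, read 35.6 and 68.3 in NPC1 and 1183 and 1283 in NPC2, a 24.995-fold rise (adjusted p = 0.000429). The NPC1 cultures A and B of Foxb1 lay further apart than those of Sox1, and both lay below the NPC2 arrays. Cdh2 encodes N-cadherin, the cadherin of neural epithelium, and read 576 and 591 in NPC1 and 2144 and 2027 in NPC2 (log2 change 1.84 ± 0.050, adjusted p = 5.89e-05). Sall3, a zinc finger factor, rose from 7.901 and 8.56 to 26.5 and 28.5 (adjusted p = 0.000106). Pou3f2, a POU factor of neural cells, was not above background in NPC1 and read 6.57 and 6.71 in NPC2, at least 3.14-fold higher.

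The other SoxB1 genes moved less than Sox1. Sox2 read 244 and 265 in NPC1 and 349 and 368 in NPC2 (log2 change 0.50 ± 0.065, adjusted p = 0.0034), and Sox3 read 992 and 1055 in NPC1 and 1756 and 1800.4 in NPC2 (log2 change 0.80 ± 0.074, adjusted p = 0.0011). The groups did not overlap for either gene. Sox21, a SoxB2 repressor of the same targets, rose with a log2 change of 1.42 ± 0.14 (adjusted p = 0.00144).

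Some genes counted among neural markers fell. Nes, the intermediate filament nestin of neural progenitors, read 2815 and 2541 in NPC1 and 669 and 654 in NPC2 (log2 change −2.02 ± 0.066, adjusted p = 7.64e-05). Pou3f1, a POU factor of the epiblast and early neural plate, read 2369.8 and 2747 in NPC1 and 744 and 829.9 in NPC2 (log2 change −1.699 ± 0.10, adjusted p = 0.00028). The NPC2 arrays of both genes lay below every NPC1 array. Among the Zic zinc finger genes, Zic5 fell, with a log2 change of −1.64 ± 0.057 (adjusted p = 8.38e-05), and Zic2 fell, with −0.35 ± 0.064 (adjusted p = 0.00965; 0.0544 without culture B of NPC2). The probe that stands for Zic1 by its higher level read 170.0 and 164 in NPC1 and 149 and 142 in NPC2, a log2 change of −0.20 ± 0.051 (adjusted p = 0.0301), while a second Zic1 probe changed by 5.24 ± 0.396 in the other direction (adjusted p = 0.00132 over all probes). The mean of both Zic1 probes gave 2.52, so no direction is drawn for Zic1.

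Notch signalling restrains neuronal differentiation in the neural plate: Delta or Jagged ligands on one cell free the intracellular part of Notch in its neighbour, which with RBPJ switches on Hes and Hey repressors. Hes, Hey and Id genes mostly rose: of 10 tested, 7 rose and 1 fell, with a median log2 change of 1.36. Hes3, a repressor of early neural progenitors near the midbrain and hindbrain, read 1.23 and 1.52 in NPC1 and 556 and 689 in NPC2. Neither NPC1 array was above background, and both NPC2 arrays were, so the change is a bound: at least 293-fold higher (adjusted p = 2.99e-05), the largest bound of the genes called. Here and below a bound sets the mean of the bright group against a floor from the dim arrays. The floor is the lowest signal that lay well above background on them, or the dim probe's own signal where that was higher. A bound, and the words "at least" with it, holds for the main processing only. Across the alternative settings the log2 change was as small as 5.29 for Hes3, 1.36 for En1 and −1.099 for Cxcl1. Each of these is a smaller change than the bound given for the gene. Hes5, the classic Notch target of neural progenitors, read 106 and 117 in NPC1 and 497 and 501 in NPC2 (log2 change 2.16 ± 0.063, adjusted p = 6.22e-05). Hes1 read 20.98 and 18.02 in NPC1 and 37.6 and 34.1 in NPC2 (log2 change 0.88 ± 0.093, adjusted p = 0.00166). All 3 genes had NPC2 arrays above both NPC1 arrays. Hes6, which opposes Hes1, fell with a log2 change of −0.71 ± 0.062 (adjusted p = 0.000926), and Hes7 was not called (−0.17 ± 0.055, adjusted p = 0.0544). Hey2 and Heyl were not well above background in any group.

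The promoter of Hes5 is shown because Hes5 is a Notch target of this tissue that lay above background on both days. Its window of 250 bases before the transcription start lies at chr4:154960673-154960922 on the plus strand (RefSeq, GRCm38.p6), and the capitals mark matches to the RBPJ motif GTGGGAA, searched on both strands, which start 226 and 83 bases before the start.
Hes5: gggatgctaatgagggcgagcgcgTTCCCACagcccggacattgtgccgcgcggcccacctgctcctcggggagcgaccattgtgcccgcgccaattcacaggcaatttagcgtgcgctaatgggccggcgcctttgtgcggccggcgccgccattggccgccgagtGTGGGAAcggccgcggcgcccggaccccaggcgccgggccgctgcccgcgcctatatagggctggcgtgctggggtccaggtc
The same 7 letters were found in 5.3% of the 22862 windows of genes with 1 window in the RefSeq table. Among Hes and Hey list members tested with 1 window, 2 of 5 held it, Hes5 and Hes7, and among Notch genes 1 of 14, Lfng. A match is a description of the letters and not of binding.

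Among Notch receptors, ligands and modifiers, 13 of 22 rose, 3 fell and 6 were not called, with a median of 0.36. The ligand Dll1 changed most, from 7.33 and 8.59 in NPC1 to 60.5 and 59.6 in NPC2 (log2 change 2.92 ± 0.085, adjusted p = 6.22e-05). The ligand Jag1 read 57.6 and 60.7 in NPC1 and 166 and 156 in NPC2 (log2 change 1.45 ± 0.055, adjusted p = 0.000102). Both ligands had NPC2 arrays above both NPC1 arrays. Mfng, a glycosyltransferase that tunes Notch to its ligands, rose with 1.28 ± 0.054, and Adam10, the protease that sheds the Notch ectodomain, with 1.04 ± 0.047 (adjusted p = 0.000127 and 0.000149). Dtx1, a Deltex ubiquitin ligase of the pathway, fell from 862 and 839 to 319 and 311 (log2 change −1.43 ± 0.046, adjusted p = 7.46e-05). The receptor Notch1 read 20.9 and 20.1 in NPC1 and 22.9 and 23.1 in NPC2 and was not called (0.16 ± 0.070, adjusted p = 0.116). The coactivator Maml2 was called on its brighter probe (1.64 ± 0.39, adjusted p = 0.0223), but its second probe gave −0.23 and the call was lost without culture A of NPC1 or without either NPC2 culture (adjusted p = 0.0799 to 0.0886).

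Id genes encode dominant negative partners of proneural factors and are classic BMP targets. Id1 read 77.7 and 70.7 in NPC1 and 326 and 306 in NPC2, Id2 read 119 and 115 in NPC1 and 430.4 and 411 in NPC2, and Id3 read 339 and 408 in NPC1 and 2152 and 2209 in NPC2. The log2 changes were 2.09 ± 0.071, 1.84 ± 0.052 and 2.55 ± 0.10 (adjusted p = 8.01e-05, 5.89e-05 and 0.000102), and no array of one group reached the other group for any of these genes. Id4 was not called (0.51 ± 0.21, adjusted p = 0.102).

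**Figure D3:**
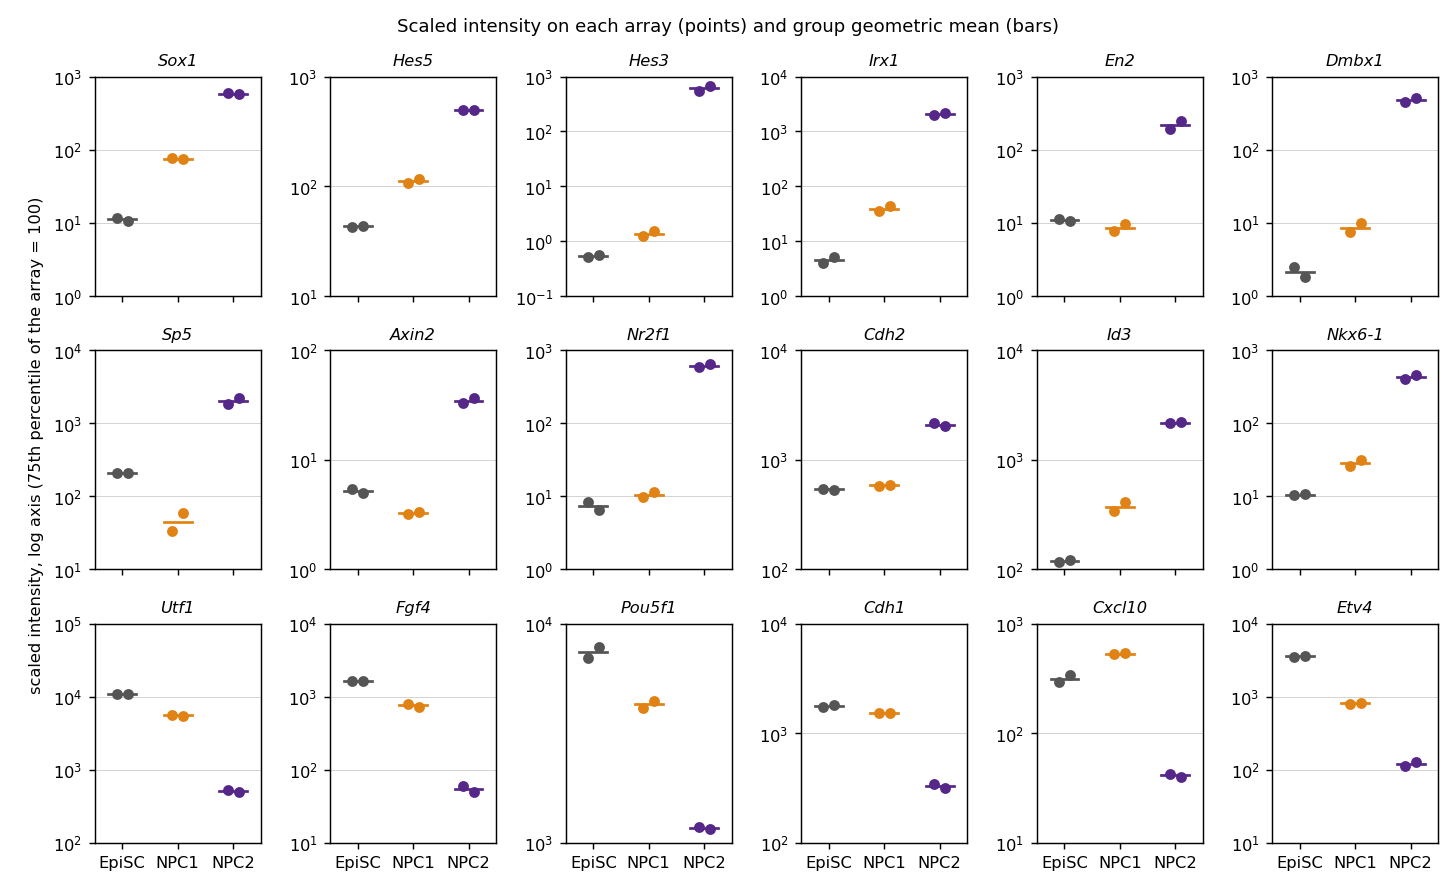
Scaled intensity (log axis, 75th percentile of the array equals 100) of 18 genes on each array of EpiSC, NPC1 and NPC2 (points), with the geometric mean of each group as a bar. In the top and middle rows the NPC2 arrays lie above the NPC1 arrays, from Sox1 to Nkx6-1, and in the bottom row, from Utf1 to Etv4, they lie below.

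The lists of genes that mark positions along the neural axis had the 2 highest medians of the 42 lists, but after normexp the anterior median lay below those of the Hes and Hey, progenitor and neural plate lists. Of 20 anterior neural plate and eye field genes on the array, 13 passed the filter, 12 rose, 0 fell and 1 was not called. Of the 7 tested with all 4 arrays above background, 6 rose. The median log2 change of the anterior list came to 2.51; setting dim genes to their bounds gave 1.94, and normexp gave 0.61. Dmbx1, a homeobox gene of the presumptive midbrain and forebrain, read 7.51 and 9.803 in NPC1 and 445 and 509.9 in NPC2, a 55.5-fold rise (adjusted p = 8.54e-05). Lhx5, a LIM homeobox gene of the anterior plate, read 4.03 and 5.06 in NPC1 and 160.0 and 171 in NPC2, a 36.6-fold rise (adjusted p = 7.68e-05). NPC1 and NPC2 arrays were far apart for both. Sp8, a zinc finger factor of the anterior neural ridge, read 15.4 and 23.9 in NPC1 and 378 and 435 in NPC2 (log2 change 4.402 ± 0.22), while its second probe gave 0.74 (adjusted p = 0.031 over all probes), so the size of that rise depends on the probe.

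Hesx1, a homeobox repressor of the earliest forebrain, read 49.8 and 52.1 in NPC1 and 217 and 175 in NPC2 (log2 change 1.94 ± 0.13, adjusted p = 0.0004). Lhx2, needed for eye field and forebrain, read 11.996 and 8.33 in NPC1 and 49.8 and 45.9 in NPC2 (log2 change 2.26 ± 0.18, adjusted p = 0.000671). Otx2, which both epiblast and anterior neural plate express, read 3455 and 3336 in NPC1 and 5333 and 4893 in NPC2 (log2 change 0.59 ± 0.060, adjusted p = 0.00147). The NPC2 arrays lay above the NPC1 arrays for all 3 genes. Fezf2, Tbx3, Six3 and Pax6 were not above background in NPC1 and were in NPC2, so their rises are bounds: at least 5.95-fold for Fezf2, 3.99-fold for Tbx3, 3.47-fold for Six3 and 2.47-fold for Pax6. Six3 lost its call without culture A of NPC2 (adjusted p = 0.0502). Rax, the eye field homeobox gene, read 3.73 and 4.06 in NPC1 and 4.96 and 3.85 in NPC2, and the groups overlapped (0.17 ± 0.20, adjusted p = 0.536). Six6, Foxd1, Fezf1, Emx2, Vax1 and Nr2e1 were not well above background on the arrays of any group.

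In the list of midbrain, hindbrain and more posterior neural genes, 18 of 23 tested rose, 1 fell and 4 were not called, with a median of 2.14. The Hox and Cdx genes named below were not among those that rose. Of 13 tested with all 4 arrays above background, 11 rose and 0 fell. The 1 gene that fell, named for that, was Egr2, a zinc finger gene of hindbrain rhombomeres and of the immediate early response, from 10.02 and 9.22 to 3.43 and 2.08 (adjusted p = 0.00325), with 1 of 2 NPC2 arrays above background. Irx1, an Iroquois homeobox gene, read 35.6 and 43.2 in NPC1 and 1970.4 and 2133 in NPC2, a 52.3-fold rise (adjusted p = 5.89e-05). Its relative Irx2 read 11.3 and 10.8 in NPC1 and 217 and 229 in NPC2 (log2 change 4.33 ± 0.054), and Irx3 read 495 and 559 in NPC1 and 1585 and 1781 in NPC2 (log2 change 1.67 ± 0.10). No NPC1 array reached an NPC2 array for any of the 3 Iroquois genes.

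Engrailed genes mark the border of midbrain and hindbrain. En2 read 7.803 and 9.54 in NPC1 and 195 and 246 in NPC2, a 25.4-fold rise (adjusted p = 7.41e-05), and En1 was not above background in NPC1 and read 23.03 and 29.7 in NPC2, at least 12.4-fold higher. Gbx2, a homeobox gene of the hindbrain side of that border, read 22.3 and 24.6 in NPC1 and 88.6 and 97.6 in NPC2 (log2 change 1.99 ± 0.14, adjusted p = 0.000493), and Fgf18, a ligand made at the border, read 37.8 and 40.5 in NPC1 and 119.5 and 139.7 in NPC2 (log2 change 1.72 ± 0.091, adjusted p = 0.000223). All of these NPC2 arrays lay above all NPC1 arrays. The paired box genes of dorsal neural tube, Pax3 and Pax7, were not above background in NPC1. Pax3 read 93.9 and 91.2 in NPC2, at least 38.7-fold higher, and Pax7 read 31.1 and 31.5, at least 14.8-fold higher (adjusted p = 4.57e-05 and 0.000386). Cdx2, Cdx4, Hoxa2, Hoxb1, Hoxb2 and Hoxb4, genes of the hindbrain and spinal cord, were not well above background in any group. Cdx1 was tested and not called (−1.18 ± 0.81, adjusted p = 0.285).

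**Figure D4:**
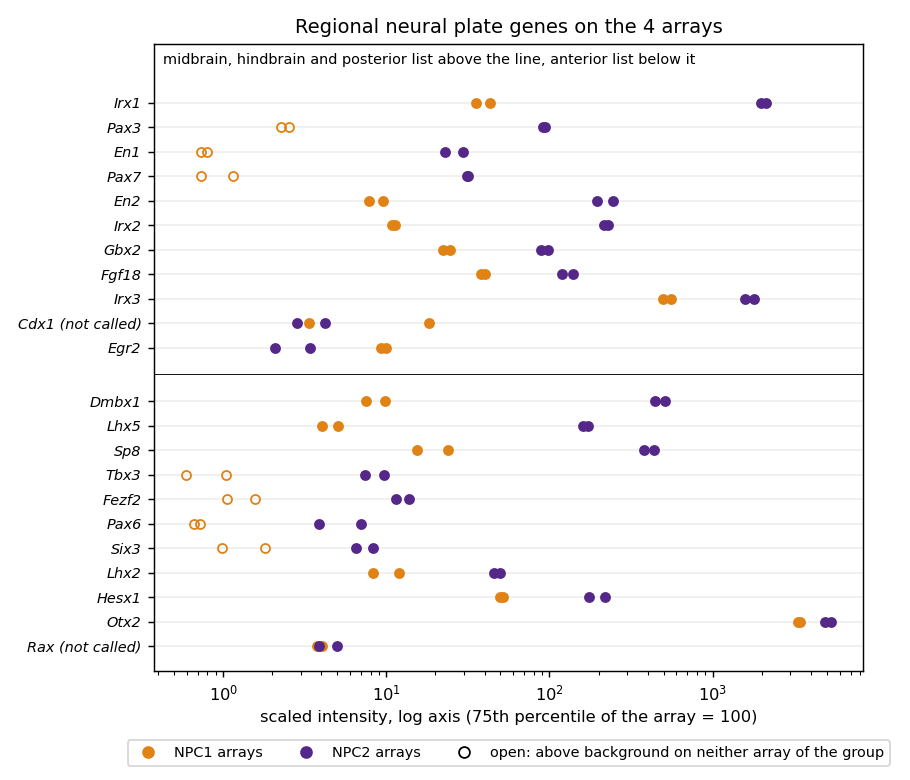
Scaled intensity (horizontal log axis, 75th percentile of the array equals 100) of 22 of the regional neural genes tested, 1 point per array, with NPC1 in orange, NPC2 in purple and open points where neither array of the group was above background. Irx1, Pax3 and En1 at the top of the upper part and Dmbx1 and Lhx5 at the top of the lower part show the widest gaps, and the groups overlap for Cdx1 and Rax.

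Genes of neuroepithelial and radial glial progenitors rose in 20 of 27 cases and fell in 3, with a median of 1.02 (0.66 after normexp). Nr2f1 (COUP-TFI), an orphan nuclear receptor that patterns the neural tube, read 9.78 and 11.3 in NPC1 and 590.2 and 639 in NPC2, a 58.4-fold rise (adjusted p = 5.61e-05). Its relative Nr2f2 read 5.27 and 4.496 in NPC1 and 99.7 and 87.6 in NPC2 (log2 change 4.26 ± 0.20, adjusted p = 0.000175). Rfx4, a factor of dorsal midline and cilia genes, read 5.98 and 7.91 in NPC1 and 73.8 and 91.7 in NPC2 (log2 change 3.58 ± 0.22, adjusted p = 0.000334). The NPC2 arrays of these genes lay far above their NPC1 arrays. Ptn, the secreted growth factor pleiotrophin, read 245 and 206 in NPC1 and 2326 and 2224 in NPC2, and Ptprz1, a receptor for it on progenitors, read 24.3 and 28.4 in NPC1 and 136 and 136 in NPC2. Their log2 changes were 3.34 ± 0.092 and 2.37 ± 0.11 (adjusted p = 5.89e-05 and 0.000144). Sox9, a SoxE factor of neural stem cells and crest, rose from 60.7 and 65.3 to 301 and 319.7 (adjusted p = 5.89e-05).

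Neuronal genes split. Of 27 tested, 7 rose, 10 fell and 10 were not called, with a median of 0.022. The proneural factor Neurog2 was not above background in NPC1 and read 8.97 and 7.27 in NPC2, at least 3.82-fold higher (adjusted p = 0.00146). Rbfox3, the RNA binding protein NeuN, read 38.1 and 33.03 in NPC1 and 96.8 and 104 in NPC2 (log2 change 1.499 ± 0.085, adjusted p = 0.000261), with other probes at 0.54 and 1.73. Onecut2, a homeodomain factor, Ebf3, a helix-loop-helix factor, and Chrna4, a nicotinic receptor subunit, rose with 1.24 ± 0.056, 1.27 ± 0.17 and 1.34 ± 0.087 (adjusted p = 0.000152, 0.00328 and 0.000374). Tubb3, the tubulin of young neurons, read 908 and 797 in NPC1 and 532 and 568 in NPC2 (log2 change −0.63 ± 0.082, adjusted p = 0.00334), and Neurod1, a differentiation factor, read 13.5 and 12.2 in NPC1 and 5.63 and 4.21 in NPC2 (log2 change −1.401 ± 0.19, adjusted p = 0.00362). The NPC2 arrays of Tubb3 and Neurod1 lay below their NPC1 arrays. Neurod4, Atoh1, Ebf1, Ebf2, Nhlh2, Onecut1, Myt1 and St18 were not well above background in any group.

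Wnt ligands pattern the neural plate from its posterior and dorsal sides, acting through Frizzled receptors and beta-catenin with TCF/LEF factors, and several of their targets feed back on the pathway. Of 30 Wnt ligands and secreted antagonists tested, 21 rose and 5 fell, with a median of 0.87 (0.39 after normexp); without culture B of NPC1, 3 fell. Wnt1, the ligand of dorsal midbrain, read 80.8 and 80.8 in NPC1 and 685 and 722 in NPC2 (log2 change 3.12 ± 0.049, adjusted p = 2.63e-05), and a second probe gave 5.69. Wnt8b, a ligand of the forebrain margin, was not above background in NPC1 and read 23.6 and 19.4 in NPC2, at least 9.17-fold higher. The antagonists rose too. Dkk1 read 12.3 and 15.97 in NPC1 and 147 and 141 in NPC2 (log2 change 3.36 ± 0.13, adjusted p = 0.000105), and Frzb read 8.62 and 10.3 in NPC1 and 110.2 and 99.1 in NPC2 (log2 change 3.47 ± 0.11, adjusted p = 7.65e-05). The groups were apart for both. The antagonist Wif1 and the enhancer of Wnt signals Rspo2 were not above background in NPC1 and rose at least 1.26-fold and 1.47-fold. Wnt3a was not well above background in any group.

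Among Wnt targets, receptors and feedback genes, 13 of 28 rose, 6 fell and 9 were not called, with a median of 0.11. Sp5, a zinc finger target of beta-catenin, read 33.8 and 58.3 in NPC1 and 1820.4 and 2233 in NPC2, a 45.4-fold rise (adjusted p = 0.000186). Axin2, the most widely used readout of the pathway, read 3.21 and 3.34 in NPC1 and 32.8 and 36.5 in NPC2 (log2 change 3.401 ± 0.077, or 1.53 after normexp, adjusted p = 4.57e-05), and a second probe gave 3.37. The feedback inhibitor Nkd1 read 68.2 and 74.2 in NPC1 and 896 and 1002 in NPC2 (log2 change 3.74 ± 0.13, second probe 2.34), and the inhibitor Apcdd1 read 8.504 and 9.49 in NPC1 and 167 and 177 in NPC2 (log2 change 4.26 ± 0.080). The receptor Fzd10 read 99.05 and 126 in NPC1 and 638 and 703 in NPC2 (log2 change 2.59 ± 0.13, adjusted p = 0.000182). All 5 genes had NPC2 arrays above both NPC1 arrays. T, the mesodermal T-box target, read 20.1 and 20.5 in NPC1 and 14.6 and 15.6 in NPC2 and fell (log2 change −0.43 ± 0.060, adjusted p = 0.00405).

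The window of Sp5 is shown because Sp5 changed most of the Wnt targets. It lies at chr2:70474673-70474922 on the plus strand (RefSeq, GRCm38.p6), and the capitals mark TCF/LEF matches, searched on both strands as CTTTG followed by 2 bases that are each A or T, 222 and 104 bases before the start.
Sp5: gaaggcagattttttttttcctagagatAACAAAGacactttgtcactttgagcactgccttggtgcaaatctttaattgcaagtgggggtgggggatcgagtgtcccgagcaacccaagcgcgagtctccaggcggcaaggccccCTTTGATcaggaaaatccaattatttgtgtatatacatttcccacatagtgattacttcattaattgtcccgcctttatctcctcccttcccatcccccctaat
One of these was found in 15.1% of all windows and in 3 of 12 Wnt target list members tested with 1 window, Sp5, Fzd7 and T, of which Sp5 and Fzd7 rose and T fell.

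FGF ligands of the epiblast fell and some of those of the neural tube rose. Fgf4, a ligand of pluripotent cells, read 791 and 733 in NPC1 and 59.9 and 49.98 in NPC2, a 13.9-fold fall (adjusted p = 5.86e-05), and Fgf5, the ligand that marks primed epiblast, read 521 and 523 in NPC1 and 114 and 95.8 in NPC2 (log2 change −2.32 ± 0.091, adjusted p = 0.00011). Fgf15, a ligand of midbrain and forebrain, read 16.99 and 22.6 in NPC1 and 179 and 200.4 in NPC2 (log2 change 3.27 ± 0.15, adjusted p = 0.000149). Fgf8, the ligand of the midbrain and hindbrain border and of the primitive streak, read 31.04 and 46.3 in NPC1 and 135 and 155 in NPC2 on the probe that stands for it (log2 change 1.93 ± 0.20, adjusted p = 0.00156), with 1.83 and 0.17 on its other probes. The receptor Fgfr3 rose from 74.8 and 59.3 to 215 and 219.6 (log2 change 1.71 ± 0.12). The groups were apart for each gene. In all, 8 of 19 ligands and receptors tested rose and 3 fell, with a median of 0.44 (0.10 after normexp).

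Most of the genes that report FGF and ERK activity fell: 21 of 30 feedback, ETS and immediate early genes were lower, 4 higher and 5 not called, with a median of −0.79 (−0.47 after normexp). The ETS factors Etv4 and Etv5 are direct readouts of the pathway. Etv4 read 794 and 831 in NPC1 and 112 and 127 in NPC2 and Etv5 read 3320.2 and 3274 in NPC1 and 572 and 614 in NPC2 (log2 changes −2.77 ± 0.078 and −2.48 ± 0.056, adjusted p = 5.89e-05 and 4.57e-05). Ier3, an immediate early gene, read 120.2 and 137 in NPC1 and 8.19 and 8.38 in NPC2, a 15.5-fold fall (adjusted p = 4.1e-05). NPC2 arrays lay below both NPC1 arrays for all 3. Spred3, an ERK pathway inhibitor, and Junb, an AP-1 subunit, fell with −2.12 ± 0.14 and −1.997 ± 0.10 (adjusted p = 0.000433 and 0.000204). Spry4, the feedback inhibitor, was not above background in NPC2, at least 1.25-fold lower than its 2.51 and 2.73 in NPC1. Myc rose from 62.95 and 62.4 to 89.9 and 89.6 (log2 change 0.52 ± 0.043), and Mycn fell from 1220.0 and 1239 to 898 and 869 (−0.48 ± 0.047), with adjusted p = 0.000801 and 0.00132.

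Of BMP ligands, receptors, inhibitors and targets, 14 of 26 rose, 3 fell and 9 were not called, with a median of 0.51 (0.24 after normexp); without culture B of NPC2, 1 fell. BMPs come from the border of the plate and its dorsal side, and Msx1 and Msx2 are homeobox targets there. Msx1 read 6.89 and 6.44 in NPC1 and 122 and 135 in NPC2 (log2 change 4.27 ± 0.081, adjusted p = 3.59e-05), and Msx2 read 13.5 and 14.1 in NPC1 and 74.1 and 70.1 in NPC2 (log2 change 2.39 ± 0.10, adjusted p = 0.000135). The groups were apart for both. The ligand Bmp5 and the inhibitor Grem1 were not above background in NPC1 and rose at least 1.98-fold and 7.697-fold. Gata3, a GATA factor that BMP induces in surface ectoderm, fell from 19.3 and 16.6 to 8.74 and 8.13 (log2 change −1.08 ± 0.10).

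Hedgehog signalling patterns the ventral neural tube. Shh itself and Olig2 were not well above background in any group, while 10 of 17 listed genes tested rose, 2 fell and 5 were not called (median 0.43). Nkx6-1, a ventral homeobox gene, read 26.4 and 31.03 in NPC1 and 399 and 456 in NPC2 (log2 change 3.898 ± 0.11, adjusted p = 5.89e-05). The receptor and target Ptch1 read 22.3 and 21.4 in NPC1 and 47.5 and 44.8 in NPC2 (log2 change 1.08 ± 0.053, adjusted p = 0.000186), and the effectors Gli1 and Gli2 and the coreceptor Boc rose with 1.05 ± 0.11, 1.19 ± 0.060 and 1.47 ± 0.088 (adjusted p = 0.00179, 0.000192 and 0.000304). NPC2 arrays lay above NPC1 arrays for all 5 genes.

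Retinoic acid gives posterior character to the neural tube. Of 18 genes of retinoid uptake, binding and metabolism, 10 rose, 3 fell and 5 were not called (median 0.35, or 0.16 after normexp). With the value table, or without NPC1 A, NPC1 B or NPC2 A, 1 fell. Stra6, the receptor that takes up retinol, read 4.93 and 5.83 in NPC1 and 32.4 and 38.8 in NPC2 (log2 change 2.72 ± 0.18, adjusted p = 0.000429). The binding protein gene Crabp1 read 91.7 and 88.7 in NPC1 and 354 and 383 in NPC2 (log2 change 2.03 ± 0.057). Its relative Crabp2 read 2009 and 2207 in NPC1 and 7706 and 7968 in NPC2 (log2 change 1.896 ± 0.063). Aldh1a2, which makes retinoic acid, and Cyp26a1, which degrades it, rose with 1.41 ± 0.068 and 1.33 ± 0.071 (adjusted p = 0.000175 and 0.000226). The groups did not overlap for any of these 5 genes.

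Epiblast genes were mostly lower after 2 days than after 1: 14 of 23 tested fell, 5 rose and 4 were not called, with a median of −0.94. Utf1, a chromatin factor of pluripotent cells, read 5637 and 5503 in NPC1 and 526 and 492 in NPC2, a 10.9-fold fall (adjusted p = 2.63e-05). L1td1, an RNA binding protein of pluripotent cells, read 8920.2 and 8522 in NPC1 and 986 and 928 in NPC2 (log2 change −3.19 ± 0.056, adjusted p = 2.99e-05). Pou5f1, which encodes Oct4, read 4139.8 and 4441 in NPC1 and 1182 and 1158 in NPC2 (log2 change −1.87 ± 0.076, adjusted p = 0.000114). NPC2 lay below NPC1 on every array for all 3. Foxd3, a forkhead repressor of epiblast and crest, read 62.2 and 80.9 in NPC1 and 10.3 and 14.5 in NPC2, and Tdgf1, the Nodal coreceptor Cripto, read 47.2 and 58.2 in NPC1 and 10.4 and 10.2 in NPC2. Their log2 changes were −2.53 ± 0.20 and −2.35 ± 0.11 (adjusted p = 0.00069 and 0.000148), with other Tdgf1 probes at −2.41 and 0.04. Nanog, the homeobox pluripotency factor, went the other way, 41.3 and 41.5 in NPC1 and 55.3 and 56.1 in NPC2, a log2 change of 0.43 ± 0.054 (adjusted p = 0.00311).

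The de novo DNA methyltransferases, which are high in epiblast, fell: Dnmt3b read 16532 and 17191 in NPC1 and 8618 and 8989 in NPC2 and Dnmt3a read 422 and 399 in NPC1 and 229 and 214 in NPC2 (log2 changes −0.94 ± 0.050 and −0.89 ± 0.059, adjusted p = 0.000223 and 0.000393). Their groups did not overlap. Over all genes of DNA methylation and its removal, 9 of 19 fell and 5 rose, with a median of −0.17; without culture B of NPC1, 6 fell and 3 rose. Among naive pluripotency genes 10 of 18 fell and 5 rose, with a median of −0.96 (−0.71 with dim genes at their bounds, −0.25 after normexp). Tdh, the threonine dehydrogenase of pluripotent cells, read 58.7 and 79.3 in NPC1 and 9.25 and 10.2 in NPC2 (log2 change −2.81 ± 0.15, adjusted p = 0.000229). Zfp42, the zinc finger marker Rex1, was dim, above background on 1 of 2 NPC1 arrays and on neither NPC2 array, and no fold is given for it. The naive list also held genes with roles in neural tissue that rose, Gbx2 and Tbx3, given above, and Jam2, a junction protein, from 8.46 and 9.04 to 48.7 and 47.2 (log2 change 2.46 ± 0.11).

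Nodal pathway genes moved in both directions, 9 of 22 higher and 8 lower, with a median of −0.043 whose sign depends on the scaling; without culture B of NPC2, 5 were higher and 7 lower. The ligand Nodal read 139 and 170.4 in NPC1 and 87.8 and 92.6 in NPC2 (log2 change −0.77 ± 0.10, adjusted p = 0.00372), and the inhibitor Cer1 read 12.6 and 14.1 in NPC1 and 5.12 and 5.19 in NPC2 (log2 change −1.37 ± 0.069, adjusted p = 0.000192). The NPC2 arrays lay below the NPC1 arrays for both. The inhibitor Lefty1 read 59.4 and 59.2 in NPC1 and 81.5 and 75.005 in NPC2 (log2 change 0.40 ± 0.059, adjusted p = 0.00501), and Fst, the Activin inhibitor follistatin, read 255 and 361 in NPC1 and 617 and 602 in NPC2 (log2 change 1.01 ± 0.17, adjusted p = 0.00716). Foxh1, the DNA partner of Smad2, and Skil, a Smad corepressor, fell with −1.01 ± 0.057 and −1.14 ± 0.060 (adjusted p = 0.000256 and 0.000217).

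Epithelial junction genes fell almost throughout. Of 31 keratin, claudin and desmosome genes tested, 26 fell, 1 rose and 4 were not called, with a median of −1.11. Krt19, a keratin of simple epithelia, read 3144 and 2923 in NPC1 and 387 and 332 in NPC2, an 8.45-fold fall (adjusted p = 7.41e-05). Krt42, another keratin, read 669.6 and 640.2 in NPC1 and 83.5 and 74.2 in NPC2 (log2 change −3.06 ± 0.10, adjusted p = 7.41e-05). Claudins seal tight junctions between epithelial cells. Cldn6 read 279.7 and 349.8 in NPC1 and 42.1 and 35.4 in NPC2 (log2 change −3.02 ± 0.14), Cldn4 read 32.5 and 31.8 in NPC1 and 6.05 and 4.08 in NPC2 (−2.69 ± 0.19), and Cldn7 read 3518 and 3264 in NPC1 and 639 and 550.4 in NPC2 (−2.51 ± 0.090). The NPC2 arrays of all 5 genes lay below their NPC1 arrays. The gene that rose was Cldn10, a claudin that forms ion pores, from 3.41 and 2.48 (1 of 2 NPC1 arrays above background) to 23.8 and 24.7 (log2 change 3.06 ± 0.23, adjusted p = 0.000587).

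Cadherins moved in opposite directions. Cdh1, E-cadherin of epithelium, read 1545 and 1518 in NPC1 and 342 and 315 in NPC2 (log2 change −2.22 ± 0.059, adjusted p = 5.89e-05) while Cdh2 rose, as given above. Esrp1 and Esrp2, splicing factors of epithelial cells, fell with log2 changes of −2.14 ± 0.11 and −1.93 ± 0.087, from 397 and 365 to 95.2 and 78.2 for Esrp1 and from 15.7 and 15.3 to 4.41 and 3.76 for Esrp2. The epithelial adhesion gene Epcam read 563 and 649 in NPC1 and 164 and 159.8 in NPC2 (log2 change −1.904 ± 0.082, adjusted p = 0.000133). No NPC2 array of these 4 falling genes reached an NPC1 array. Of the repressors of Cdh1 that drive epithelial cells to become migratory, Zeb2, Snai1, Zeb1 and Snai2 rose with log2 changes of 1.68 ± 0.057, 1.198 ± 0.10, 1.101 ± 0.047 and 0.86 ± 0.16 (adjusted p = 7.81e-05, 0.000919, 0.000134 and 0.0113); these 4 are named after their values were seen. Within the cadherin, Snail and Zeb list, 10 of 25 rose and 12 fell (median −0.23, or −0.15 after normexp); without culture B of NPC2, 6 rose and 11 fell. Cdh20, a cadherin of neural tissue with 1 of 2 NPC1 arrays above background, was called (2.24 ± 0.51, adjusted p = 0.0205) but lost its call without any 1 of the 4 cultures (adjusted p = 0.0538 to 0.0919).

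NF-kB is a family of factors that inflammatory signals release from their IkB inhibitors, and many of its targets are chemokines or its own inhibitors. Of 22 NF-kB subunits and targets tested, 19 fell, 1 rose and 2 were not called, with a median of −1.17 (−1.02 with dim genes at their bounds, −0.48 after normexp). The chemokine Cxcl10 read 525 and 538 in NPC1 and 42.5 and 40.2 in NPC2, a 12.9-fold fall (adjusted p = 4.57e-05). The chemokine Cxcl1 read 16.3 and 16.1 in NPC1 and 1.07 and 1.03 in NPC2; it was not above background in NPC2, at least 7.71-fold lower (adjusted p = 2.63e-05). Bcl3, an IkB-like coactivator, read 83.9 and 73.9 in NPC1 and 7.01 and 6.21 in NPC2, an 11.9-fold fall (adjusted p = 5.89e-05). NPC2 lay below NPC1 on every array for these genes. Tnf was not above background in NPC2, at least 1.96-fold lower, and the adhesion gene Icam1 (1 of 2 NPC2 arrays above background) and the chemokine Ccl2 fell with −2.46 ± 0.095 and −2.12 ± 0.17 (adjusted p = 0.000105 and 0.000653). Outside the list, Ltb, which encodes the TNF family ligand lymphotoxin beta, gave the largest fall of any gene above background on all 4 arrays, 1573 and 1323 in NPC1 and 55.1 and 48.2 in NPC2, a 28.01-fold fall (adjusted p = 5.86e-05). Il6, Cxcl2, Ccl20, Rel and Vcam1 were not well above background in any group.

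The windows of Cxcl1 and Cxcl10 are shown as those of chemokine genes that fell. Cxcl1 lies at chr5:90890995-90891244 on the plus strand and Cxcl10 at chr5:92348890-92349139 on the minus strand (RefSeq, GRCm38.p6). The capitals mark matches to the kappaB motif, searched on both strands: 2 overlapping matches 71 and 70 bases before the start of Cxcl1, and 2 separate ones 159 and 103 bases before that of Cxcl10.
Cxcl1: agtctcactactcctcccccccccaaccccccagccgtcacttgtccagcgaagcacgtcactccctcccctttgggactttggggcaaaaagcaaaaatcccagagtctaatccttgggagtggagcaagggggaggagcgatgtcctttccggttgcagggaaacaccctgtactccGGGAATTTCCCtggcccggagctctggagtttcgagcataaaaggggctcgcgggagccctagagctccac
Cxcl10: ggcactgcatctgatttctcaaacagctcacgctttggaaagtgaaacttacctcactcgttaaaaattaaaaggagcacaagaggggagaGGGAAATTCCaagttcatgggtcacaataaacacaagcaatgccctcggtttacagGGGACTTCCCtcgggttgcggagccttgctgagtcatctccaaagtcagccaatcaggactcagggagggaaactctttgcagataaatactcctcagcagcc
The motif was found in 3.7% of all windows and in 6 of 15 list members tested with 1 window: Nfkbia, Nfkbie, Cxcl1, Cxcl10, Csf1 and Sod2. Of 12 members that fell and have 1 window, 5 held it, beside the 6 of 15 tested. A link between the motif and the fall was not tested.

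Actin and SRF target genes encode the contractile cytoskeleton and are switched on by serum response factor when actin polymerises. Of 25 tested, 19 fell, 2 rose and 4 were not called, with a median of −0.66. Cnn1, the smooth muscle protein calponin, read 3987 and 4009 in NPC1 and 897 and 877 in NPC2, Actc1, cardiac alpha actin, read 966 and 1019.8 in NPC1 and 337 and 340.4 in NPC2, and Cnn2 read 1481 and 1456 in NPC1 and 524 and 533 in NPC2. Their log2 changes were −2.17 ± 0.055, −1.55 ± 0.10 and −1.47 ± 0.060 (adjusted p = 5.83e-05, 0.000404 and 0.000116), with no overlap between the groups. Ccn1 and Ccn2, secreted matrix proteins, and Ankrd1, a muscle ankyrin repeat protein, fell with −2.17 ± 0.061, −2.06 ± 0.073 and −1.796 ± 0.30 (adjusted p = 5.89e-05, 8.84e-05 and 0.00729). Acta2, smooth muscle alpha actin, went the other way, 293 and 273 in NPC1 and 544 and 488 in NPC2 (log2 change 0.86 ± 0.10, adjusted p = 0.00238).

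Windows of Actc1 and Cnn2 are shown for the CArG box, the binding motif of SRF. They lie at chr2:114052876-114053125 on the minus strand and chr10:79988350-79988599 on the plus strand (RefSeq, GRCm38.p6), and the capitals mark the box, 47 bases before the start of Actc1 and 56 before that of Cnn2.
Actc1: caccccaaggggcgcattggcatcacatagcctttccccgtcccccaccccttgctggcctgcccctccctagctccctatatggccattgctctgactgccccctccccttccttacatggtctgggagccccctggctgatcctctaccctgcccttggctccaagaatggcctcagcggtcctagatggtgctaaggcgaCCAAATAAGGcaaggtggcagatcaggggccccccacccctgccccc
Cnn2: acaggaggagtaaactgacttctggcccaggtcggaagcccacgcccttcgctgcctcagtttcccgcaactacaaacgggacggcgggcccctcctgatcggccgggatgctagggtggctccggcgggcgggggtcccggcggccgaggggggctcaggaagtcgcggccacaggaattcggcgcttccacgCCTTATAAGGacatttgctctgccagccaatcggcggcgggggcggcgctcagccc
The box was found in 1.4% of all windows and in 6 of 20 list members tested with 1 window: Acta1, Actc1, Cnn2, Myl9, Vcl and Srf. All 6 are among the 17 such members that fell, but 17 of the 20 fell in all, with or without the box. A link between the box and the fall was not tested.

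Some genes moved one way on the first day and the other way on the second. The comparison of NPC1 with EpiSC uses the same NPC1 arrays as the comparison described here, so a high or low NPC1 value enters both with opposite signs, and the values are only set side by side. Actc1 read 20.8 and 25.3 in EpiSC, 966 and 1019.8 in NPC1 and 337 and 340.4 in NPC2. Stmn4, a microtubule regulator of neurons, read 112 and 129.6, then 1362 and 1271, then 81.7 and 78.6 in the same order, a 16.4-fold fall on the second day (adjusted p = 4.23e-05). Adm, the peptide adrenomedullin, read 29.9 and 32.9, 301 and 325 and 56.9 and 44.5 (log2 change −2.64 ± 0.13 on the second day). For these genes both NPC1 arrays lay above both other groups.

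In the other direction, Nrp2, a semaphorin receptor, read 472 and 448 in EpiSC, 137 and 141 in NPC1 and 1553 and 1678 in NPC2. Id2 read 385 and 399 in EpiSC against the NPC1 and NPC2 values above. Foxa2, a forkhead gene of endoderm and floor plate, read 502 and 481 in EpiSC, 25.6 and 32.6 in NPC1 and 126 and 142 in NPC2 (log2 change 2.21 ± 0.13, adjusted p = 0.000304). Both NPC1 arrays lay below both other groups for these genes, and NPC2 stayed below EpiSC for Foxa2 while it exceeded EpiSC for Nrp2.

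**Figure D5:**
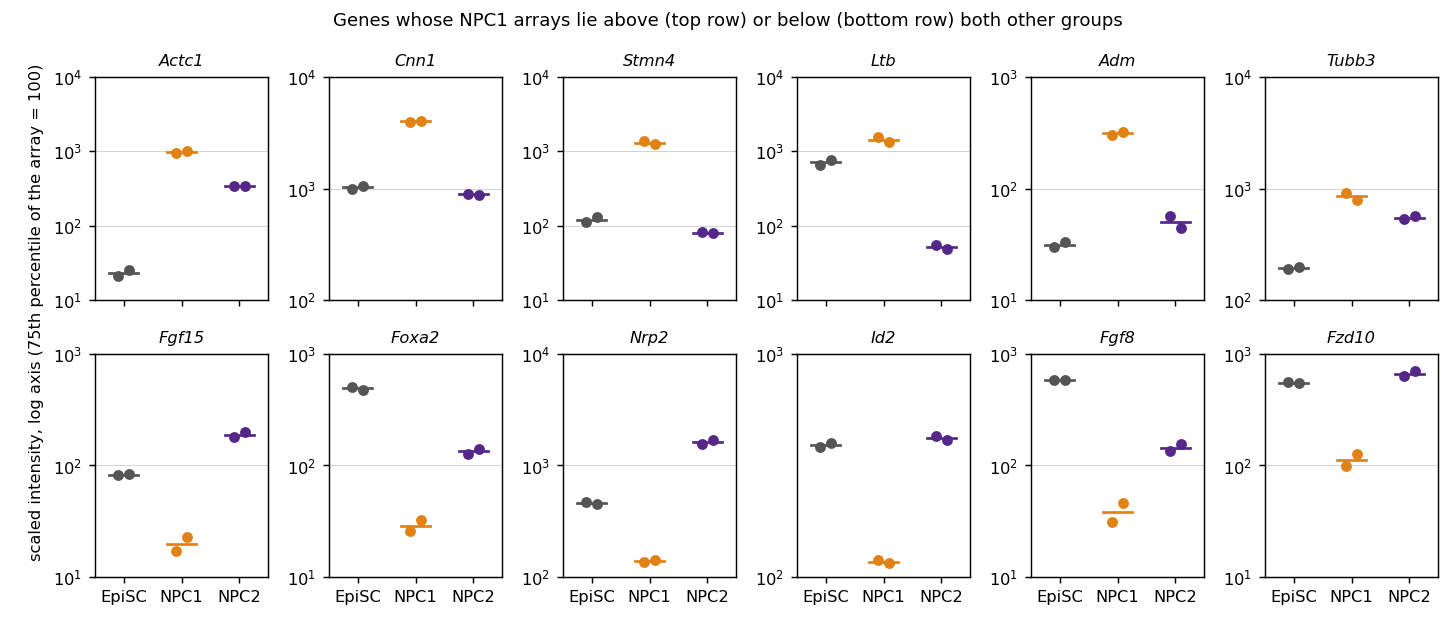
Scaled intensity (log axis, 75th percentile of the array equals 100) on each array (points) with group geometric means (bars) of 12 genes whose NPC1 arrays lie outside both other groups. Actc1, Cnn1, Stmn4, Ltb, Adm and Tubb3 are highest in NPC1, and Fgf15, Foxa2, Nrp2, Id2, Fgf8 and Fzd10 are lowest there.

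Metabolic and stress genes moved less, and their counts are to be read against the 47.4% of all genes called. Housekeeping genes, given below, had 7 of 14 lower, 0 higher and a median of −0.17. Of 28 amino acid stress and unfolded protein genes, 23 fell and 1 rose (median −0.48). Atf3, a stress-induced factor, read 403 and 377 in NPC1 and 116 and 118 in NPC2, the amino acid transporter gene Slc7a3 read 4773 and 4915 in NPC1 and 1494 and 1439 in NPC2, and the pseudokinase gene Trib3 read 3300.3 and 2908 in NPC1 and 984 and 1063 in NPC2. Their log2 changes were −1.74 ± 0.059, −1.72 ± 0.058 and −1.599 ± 0.089, and the groups did not overlap. Slc7a11, the cystine transporter, was not above background in NPC2, at least 2.32-fold lower. Of the sterol and fatty acid synthesis genes 21 of 33 fell and 2 rose (median −0.41). With the value table or quantile scaling 18 fell and 4 rose, and without NPC1 B, NPC2 A or NPC2 B 0 rose. Hmgcs1, an early enzyme of the sterol pathway, read 18094 and 17342 in NPC1 and 12108 and 11658 in NPC2 (log2 change −0.58 ± 0.051, adjusted p = 0.000977). Among oxidative phosphorylation genes 18 of 32 fell and 0 rose (median −0.20). That count depends on the processing: 7 fell and 1 rose with the value table (median −0.10), 8 fell and 1 rose with quantile scaling (median −0.08), 8 fell without NPC1 B, 9 without NPC2 A, 7 without NPC2 B, and 11 with the 4 arrays alone, without either EpiSC culture or with no filter on dim probes. Cyc1, a subunit of complex III, read 6498 and 6938 in NPC1 and 4885 and 5169 in NPC2 (−0.42 ± 0.058, adjusted p = 0.00405).

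Glycolysis and hypoxia genes were called in 46.4% of cases, close to the 47.4% of all genes, with 4 higher, 9 lower and 15 not called of 28; 2 were higher without NPC1 A, NPC1 B or NPC2 A. Slc2a3, a neuronal glucose transporter, read 7739 and 8072 in NPC1 and 16117 and 15123 in NPC2 (log2 change 0.98 ± 0.055, adjusted p = 0.000258), and Slc16a3, a lactate exporter, read 14703 and 14853 in NPC1 and 8296 and 7787 in NPC2 (−0.88 ± 0.052). Cell cycle genes were called in 38.7%, 6 higher and 6 lower of 31, a balance that moved with the processing: quantile scaling gave 11 higher and 5 lower, 11 and 4 came from the value table, and leaving out NPC2 B gave 3 and 4. Cdk6, a G1 kinase, read 26.6 and 24.5 in NPC1 and 5.19 and 5.85 in NPC2 (−2.21 ± 0.081, adjusted p = 9.35e-05), and the inhibitor Cdkn2b read 33.6 and 28.4 in NPC1 and 9.07 and 5.96 in NPC2 (−2.07 ± 0.21, adjusted p = 0.00156). Ccnd2, the cyclin of neural progenitors, read 492 and 531 in NPC1 and 1028 and 1089 in NPC2 (1.05 ± 0.061), and Cdkn1c read 681 and 624 in NPC1 and 1168 and 1104 in NPC2 (0.80 ± 0.064). Groups did not overlap for these cell cycle genes.

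Of p53 target genes, 15 of 25 fell and 2 rose (median −0.31). Gadd45b, a stress sensor, read 895 and 737 in NPC1 and 159 and 129.9 in NPC2 (log2 change −2.5001 ± 0.14, adjusted p = 0.000234), and Mdm2, the p53 ubiquitin ligase, read 3593 and 3496 in NPC1 and 2165 and 2127 in NPC2 (−0.72 ± 0.047). Of antigen presentation and interferon response genes, 18 of 28 fell and 6 rose (median −0.36, or −0.23 after normexp). The count that rose was 3 without NPC1 A, 1 without NPC2 A, and 2 without NPC2 B or either EpiSC culture, with the 4 arrays alone or with no filter on dim probes, while 15 to 17 fell in those settings. Gbp2, an interferon-induced GTPase, read 204 and 191 in NPC1 and 55.4 and 45.8 in NPC2 (−1.97 ± 0.11), Psmb8, an immunoproteasome subunit, read 96.9 and 103 in NPC1 and 39.04 and 36.2 in NPC2 (−1.41 ± 0.060), and Irf1, the interferon regulatory factor, read 430.1 and 403 in NPC1 and 166 and 157 in NPC2 (−1.37 ± 0.058). The NPC2 arrays of these genes lay below the NPC1 arrays, with adjusted p = 0.000258, 0.000133 and 0.000126.

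Polycomb and BAF chromatin genes had a median near that of all genes (0.073), with 15 of 36 higher and 11 lower. Single members moved far. Bcl11a, a zinc finger BAF subunit, read 65.7 and 69.6 in NPC1 and 9.93 and 9.07 in NPC2 (log2 change −2.83 ± 0.067, second probe −4.37, adjusted p = 5.21e-05), and Phc1, a Polycomb subunit, read 1185 and 1209 in NPC1 and 407 and 390.3 in NPC2 (−1.59 ± 0.048). Bmi1, another Polycomb subunit, read 60.02 and 58.3 in NPC1 and 125 and 128 in NPC2 (log2 change 1.098 ± 0.048), and Cbx8, a chromobox subunit, read 3.55 and 3.84 in NPC1 and 9.45 and 10.3 in NPC2 (log2 change 1.42 ± 0.074). Smarca2 and Smarcd3, BAF subunits of differentiating cells, rose with 1.103 ± 0.068 and 1.32 ± 0.17 (adjusted p = 0.000329 and 0.003). Each of these genes had groups that did not overlap.

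Guidance molecules steer axons and migrating cells, and 17 of 40 tested rose, 10 fell and 13 were not called (median 0.17), with 15 called and at least 2-fold higher and 6 called and at least 2-fold lower. The 6 members with the largest called changes, which are the ones named, all rose. Efnb1, an ephrin ligand, read 80.4 and 83.7 in NPC1 and 2155 and 2292 in NPC2, a 27.1-fold rise (adjusted p = 2.63e-05). Ntn1, the attractant netrin 1, read 25.2 and 32.3 in NPC1 and 419 and 483 in NPC2 (log2 change 3.98 ± 0.14, adjusted p = 8.25e-05). Nrp2 rose with 3.54 ± 0.061 (adjusted p = 2.99e-05). Both Efnb1 and Ntn1 had NPC2 arrays far above NPC1. Sema3a, a repellent semaphorin, was not above background in NPC1, at least 14.7-fold higher in NPC2, and the semaphorin receptors Plxna2 and Plxnc1 rose with 2.52 ± 0.058 and 2.96 ± 0.18.

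Matrix and integrin genes fell in 15 of 32 cases and rose in 8 (median −0.19). Itga3, an integrin that holds epithelial cells to the basement membrane, read 248 and 244 in NPC1 and 58.7 and 54.2 in NPC2 (log2 change −2.12 ± 0.068). Itgb4, another such integrin, read 44.7 and 39.5 in NPC1 and 12.7 and 10.8 in NPC2 (log2 change −1.84 ± 0.10). Lama1, a laminin chain of the embryonic basement membrane, read 215 and 197 in NPC1 and 657 and 667 in NPC2 (1.68 ± 0.082), and Col1a2, a fibrillar collagen chain, read 162 and 128 in NPC1 and 509 and 458 in NPC2 (1.7497 ± 0.13). NPC1 and NPC2 did not overlap for any of them. Of 46 neurotransmitter receptor and ion channel genes on the array, 31 were above background enough to test, and 9 of these rose and 5 fell, 45.2% called. Without NPC1 B 5 rose and 5 fell, without NPC2 A 6 rose and 2 fell, and without NPC2 B 5 rose and 2 fell. The potassium channel gene Kcna1 read 14.8 and 13.97 in NPC1 and 37.7 and 37.95 in NPC2 (log2 change 1.39 ± 0.082, adjusted p = 0.000293).

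Markers of other cell types were read as whole lists. In the primitive streak and mesoderm list 10 of 21 tested genes rose and 5 fell (median 0.28, or −0.02 after normexp; 10 rose and 3 fell with the filter on the NPC1 and NPC2 arrays only, and 6 and 3 of the 12 with all 4 arrays above background), and the summed scaled intensity was 1428 and 1369 in NPC1 and 1877 and 1708 in NPC2. Eomes, a T-box gene of streak and trophoblast, read 91.1 and 99.4 in NPC1 and 19.5 and 22.6 in NPC2 (−2.18 ± 0.090), whereas Evx1 and Pdgfra, not above background in NPC1, rose at least 9.296-fold and 12.3-fold, and Tbx1 rose with 2.053 ± 0.11. Msgn1, Meox1, Foxc2, Foxf1, Wnt3a and Gata4 were not well above background in any group. In the endoderm list 7 of 17 rose and 7 fell (median −0.060, with a sign that depends on the scaling), with sums of 3397 and 3345 in NPC1 and 3566 and 3541 in NPC2. Cxcr4, a chemokine receptor of endoderm and neural progenitors, read 2.04 and 5.34 in NPC1 and 82.3 and 81.8 in NPC2 (4.64 ± 0.45), with 1 of 2 NPC1 arrays above background, while Gata4, Hnf4a, Apoa1, Ttr, Sox7 and Cpn1 were not well above background. Among surface ectoderm and crest genes 11 of 21 rose and 4 fell (median 0.28; 2 fell with the value table or without either NPC2 culture), with sums of 4358 and 4575 in NPC1 and 4724 and 4881 in NPC2. That list shares Pax3, Pax7, Msx1, Msx2 and Sox9 with dorsal neural tube, and Tfap2b, Dlx6 and Gata2 were not well above background.

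Glial genes, of which some are also made by neural progenitors, rose in 6 of 12 cases and fell in 2, with sums of 1121 and 1078 in NPC1 and 1168 and 1205 in NPC2. Nfib, a nuclear factor I gene, read 29.8 and 28.1 in NPC1 and 7.36 and 5.004 in NPC2 (−2.25 ± 0.18), and Olig1, Olig2, S100b and Nfia were not well above background. In the fibroblast and feeder list 9 of 14 rose and 3 fell (median 0.57, or 0.28 after normexp), with sums of 1559 and 1515 in NPC1 and 2344 and 2237 in NPC2. Fbln1, a matrix protein, read 80.1 and 79.1 in NPC1 and 269 and 265 in NPC2 (1.746 ± 0.051), S100a4 read 24.7 and 23.9 in NPC1 and 6.498 and 6.503 in NPC2 (−1.901 ± 0.087), and Lum, Lox, Fap and Vcam1 were not well above background. Of extraembryonic and trophoblast genes 1 of 12 rose and 7 fell, with sums of 28408 and 28155 in NPC1 and 21389.7 and 20371 in NPC2, and Cdx2, Elf5, Tpbpa, Psg17, Sox7 and Ttr were not well above background. Of 6 germ cell genes tested 2 rose and 1 fell, with sums of 199 and 212 in NPC1 and 272 and 254 in NPC2, and Dazl, Ddx4, Stk31, Mael, Prdm14 and Dppa3 were not well above background. Of 11 blood and endothelial genes 2 rose and 2 fell (4 fell with the 4 arrays alone or without either EpiSC culture), with sums of 1333 and 1276 in NPC1 and 1287 and 1174 in NPC2, and Cdh5, Tek and Hba-x were not well above background. The part of these cell types in the changes above was not tested.

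Of the housekeeping genes 7 of 14 fell, 0 rose and 7 were not called (median −0.17). With the value table, 1 fell and 1 rose (median −0.07), with quantile scaling 4 fell and 1 rose, without NPC1 A 4 fell, and without NPC2 A or NPC2 B 2 fell. Gapdh read 66266 and 61207 in NPC1 and 63116 and 61834 in NPC2 and was not called (−0.028 ± 0.057, adjusted p = 0.72). Actb read 63250.2 and 60266 in NPC1 and 52061 and 54524 in NPC2 (−0.21 ± 0.052, adjusted p = 0.0245) and lost its call in 10 of 16 alternative settings. Hprt read 3488 and 3749.7 in NPC1 and 2456 and 2342 in NPC2 (−0.59 ± 0.058, adjusted p = 0.00133).

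Several of the largest changes lay outside the lists. Scube2, a secreted factor that helps release Hedgehog ligands, read 11.8 and 15.7 in NPC1 and 788 and 879 in NPC2, a 61.05-fold rise (adjusted p = 5.53e-05), with a second probe at 3.06. Ano1, a calcium-activated chloride channel, read 6.24 and 6.26 in NPC1 and 181 and 201 in NPC2 (30.6-fold), and Lmo1, a LIM-only cofactor, read 43.6 and 45.9 in NPC1 and 926 and 973 in NPC2 (21.2-fold). Fam181b, Cbln1, Pdzph1 and Samd5 rose 23.5, 20.8, 18.1 and 16.8-fold. Dbx1, a homeobox gene of interneuron progenitors, was not above background in NPC1 and read 63.1 and 68.7 in NPC2, at least 31.1-fold higher. 2510009E07Rik, Osmr and Tmem132c rose in the same way by at least 32.8, 25.8 and 24.1-fold. The NPC2 arrays of each of these genes lay above the NPC1 arrays, a gap that the rule for naming them asked for or favoured.

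Among the largest falls outside the lists, Calcr, the calcitonin receptor gene, read 218 and 236 in NPC1 and 16.03 and 15.6 in NPC2 (14.4-fold), and Spp1, the secreted phosphoprotein osteopontin, read 153 and 158 in NPC1 and 10.49 and 13.8 in NPC2 (12.98-fold). Mal2, Galnt3, Tgm1, Plaur, Lgals3, Lamb3, Pdgfb, Krt17, Plet1 and Crb3 fell between 9.02 and 12.7-fold, and several of them, such as Lamb3, Krt17 and Crb3, encode epithelial proteins. Il20ra, Bcl11b, Sh3rf2 and Tnfsf11 were above background in NPC1 and not in NPC2, at least 8.54, 7.59, 6.54 and 6.25-fold lower. In each of these 16 genes the NPC2 arrays lay below the NPC1 arrays, a gap that the rule for naming them asked for or favoured.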

How the data were processed

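Total RNA of 6 cultures was labelled with Cy3 from 100 ng per sample and hybridised to 1-colour arrays, per the labels' protocols, all on 1 slide, per the file headers. The deposited files hold scanner output, and the processed intensity in them is already background-subtracted, per the file headers (Feature Extraction 10.10.1.1, protocol GE1_1010_Sep10, design 028005). The authors' value table holds the same deposited intensity times 1 constant per array, with the constant's origin not given in the sources used here.

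The processed intensity of each array was divided by its 75th percentile over non-control spots, log2 was taken, and the 128 to 171 spots flagged as outliers per array were left out. Spots of a probe were averaged to 55646 probes. Of these, 26744 took a gene symbol from the files' accessions through RefSeq, naming 20274 genes. Among a gene's probes that passed the filter given next, the one with the highest mean over the 6 arrays stands for it. A probe was tested where both arrays of some group, EpiSC included, lay well above background. The fit used limma 3.58.1 (R 4.3.3) with 1 mean per group over all 6 arrays and 3 residual degrees of freedom. Benjamini-Hochberg adjustment ran over all 14772 genes. The code of the fit was also run on simulated data with far fewer changed genes than were called here. That run checks the code and not these calls. The pairing of the letters A and B was checked by the correlation of A minus B deviations between NPC1 and NPC2, which was −0.0448. No shared A and B deviation was therefore seen across genes, and no block was fitted. The check cannot tell whether cultures of the same letter were handled together.

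Named genes are the 20 largest rises and 20 largest falls among genes above background on all 4 arrays, the 8 largest bounds each way, the 6 largest called changes of each list, and a fixed set of markers, with members of the small families Hes, Sox, Zic, Id, Fgf and Cdh beside them. The members and lists were chosen with earlier results of these data known. Alternatives were median and quantile scaling, normexp (offset 50), the value table, 3 filters, the mean of a gene's probes, the 4 arrays alone, a replicate block and leaving out each culture. Promoter windows are RefSeq's, GRCm38.p6, and are unrelated to the array's own mm9 coordinates. Some measured genes are not reported here, though the counts of the lists include them.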

Additional observations from a re-analysis of the deposited data

How the results depend on the processing

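The counts of genes called higher and lower stayed within 1.5 times of 3045 and 3951 under every alternative run, and 250 of the 276 called named genes were called in the same direction under each alternative in which they were tested; genes dim in NPC1 or NPC2 were not tested under the stricter filters. After normexp the counts of genes called and at least 2-fold changed were 290 higher and 411 lower against 694 and 914; that correction adds an offset, which shortens the folds of dim genes. Leaving out 1 culture gave 5002 to 6152 genes called, with 2140 to 2737 higher, 2862 to 3451 lower, 658 to 699 at least 2-fold higher and 893 to 956 at least 2-fold lower. With the letters A and B as a replicate block, 2834 genes were higher and 3648 lower, 6482 in all. Whether cultures of the same letter were handled together is not known, and the block is given beside the main fit. The authors' value table moved the median of all genes from −0.05 to 0.06, and with it 41.03% of calls were lower against 56.5%; quantile scaling gave 47.7% lower. Under the mean of a gene's probes Zic1 reversed to 2.52 (adjusted p = 0.000643). The medians of 4 lists changed sign under another scaling or background correction: Nodal signalling, primitive streak and mesoderm, endoderm, and glycolysis and hypoxia. Values of genes not well above background are bounds, and these hold for the main processing only. Such genes include 153 called higher from no NPC1 array above background and 181 called lower to no NPC2 array above background. The 2 cultures per group limit the precision of all values.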

Other observations

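Transcripts outside the protein-coding genes also changed between the days; those named here were chosen after their values were seen. Neat1, the long noncoding RNA that builds nuclear paraspeckles, read 148 and 141 in NPC1 and 42.4 and 40.3 in NPC2, a log2 change of −1.81 ± 0.052 (adjusted p = 6.1e-05 by limma). Malat1, a nuclear speckle RNA, read 536 and 426 in NPC1 and 230.3 and 243 in NPC2 (−1.02 ± 0.12, adjusted p = 0.00214), and the imprinted Meg3 read 10073 and 10046 and 7275 and 7439 (−0.45 ± 0.044, adjusted p = 0.0013). The NPC2 arrays lay below the NPC1 arrays for all 3. Among host transcripts of microRNAs, whose mature products these arrays did not measure, Mir124-2hg was not above background in NPC1 and read 8.57 and 8.85 in NPC2, at least 4.12-fold higher. Mir17hg read 802 and 950.5 in NPC1 and 1634 and 1663 in NPC2 (0.92 ± 0.093), Mir9-3hg read 17.2 and 15.9 in NPC1 and 24.1 and 24.3 in NPC2 (0.54 ± 0.056), and Mir22hg read 41.5 and 28.96 in NPC1 and 9.33 and 7.63 in NPC2 (−2.04 ± 0.20).

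Probes placed on genomic intervals, with no gene name, gave 709 higher and 948 lower of 7488 tested, 22.1% called against 31.9% of all probes. Of 1228 intervals with at least 3 probes tested, 128 had every probe called in 1 direction, 49 higher and 79 lower. The largest median rises were at chr8:90048940-90049461 and the overlapping chr8:89996710-90049453, both on the forward strand of mm9, with 3 probes each and log2 changes of 3.92 to 4.14 and 3.29 to 4.04. The largest median falls were at chr3:93150619-93184368 (5 probes, −4.26 to −2.58) and chr3:30077338-30080281 (3 probes, −3.34 to −2.55), both on the reverse strand of mm9. The files pair none of these intervals with a gene name, and probes of 1 interval may share a transcript.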
